A study of Mus musculus with 26 samples.

Results

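Whole testes of C57BL/6 mice carrying the Nkapl allele TGdel were compared with wild-type testes by RNA sequencing. Both groups were taken at postnatal day 21, and the mutants are given as Nkapl TGdel/TGdel. The series covers 26 samples, of which 18 are whole-testis files holding 15 distinct libraries, and the comparison uses 5 of them. The 5 libraries are those whose column headings inside the count files name them as wild type 1 (NE179), wild type 2 (NE180), TGdel 1 (NE184), TGdel 2 (NE185) and TGdel 3 (NE186). The series title names a frameshift mutation of NKAPL, M349fs, but no label states that TGdel is that change, how the deletion was made, or whether the wild-type mice are littermates. No label for these groups names a transgene or a Cre driver, and none says how many animals or testes went into a library.

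File record and column heading disagreed in this set. The 6 recorded samples hold 5 libraries, because NE179 is the heading of 2 files with identical values, which were counted as 1 sample. In 5 of the 6 files the heading names another sample than the record. For wild type 2 (NE180) and TGdel 3 (NE186) the disagreement crosses the groups: NE180 stands in a file recorded as TGdel, and NE186 in a file recorded as wild type. Both were placed by heading, and results are also given without them. Total counts lay between 16469667 and 17822056, so the 5 libraries were of similar depth, over 24682 genes. The 45S ribosomal RNA precursor gene Rn45s took 0.497% of the counts in TGdel 1 and between 0.0598% and 0.0713% in the others. Levels are given as CPM, counts scaled by edgeR to a common library total, which compare libraries and not genes, since no value was divided by gene length.

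NKAPL is a nuclear protein of germ cells related to NKAP, a protein of transcription and splicing complexes, and it is needed for male meiosis and sperm formation in the mouse. RNA polymerase II pauses soon after the start of most genes and is then released into elongation, and testis genes depend on timed bursts of such transcription as spermatocytes pass through meiosis. At about this age the first wave of germ cells is reaching the round spermatid stage. Round spermatids are haploid cells that build the acrosome, a cap of enzymes, and begin the flagellum, whose core is the axoneme of microtubule doublets driven by dynein motors.

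The Nkapl transcript itself was present in all TGdel testes. Nkapl (chr13:21467047-21468509 of GRCm38, minus strand, protein-coding) measured 101 and 103 CPM in the wild-type libraries and 107, 118 and 126 CPM in TGdel 1, 2 and 3. The groups did not overlap, but the log2 difference of 0.20 ± 0.09 (SE) did not pass (adjusted p = 0.328, edgeR quasi-likelihood test with Benjamini-Hochberg adjustment, as for every adjusted p below). A gene-level count does not read the allele, so this level does not check the genotype labels. Nkap, the related gene of wider expression, measured 5.74 and 5.78 CPM against 5.78, 5.43 and 6.27 CPM. Sox30, a testis transcription factor gene studied in the same series, measured 54.5 and 43.2 CPM against 48.7, 63.5 and 55.3 CPM. Both overlapped between the groups.

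More genes fell than rose in TGdel testis. Of 16011 genes tested, 168 fell (1.05%) and 32 rose (0.2%) at an adjusted p under 0.05, while 2476 had an unadjusted p under that value. Among the genes that fell the median log2 change was -1.03, and 88 fell by at least 1 on the log2 scale. The rises were smaller, with a median of 0.54, and 4 genes rose by at least 1. In all 200 called genes the CPM of the groups did not overlap. Over all genes tested, 17.3% were lower in every TGdel library than in both wild-type libraries and 16.1% were higher in every one, so a lack of overlap is common here. The median log2 change of all genes tested was 0.0017.

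The number of calls rested on single libraries. In every fit without 1 library all of the 200 called genes that could be tested (199 or 200) kept their sign. The CPM of the groups did not overlap in any called gene. In a fit with fewer libraries this left little room for a sign to turn, so kept signs are no support for the calls. Without TGdel 2 no gene passed in either direction (2188 at an unadjusted p under 0.05), and without wild type 1 a single gene did, a fall (1045 at an unadjusted p under 0.05). Without wild type 2, 38 fell and 2 rose, without TGdel 1, 405 fell and 99 rose, and without TGdel 3, 145 fell and 12 rose. DESeq2 on the same 5 libraries called 365 lower and 211 higher. Without the pair whose record and heading disagree, 2 TGdel libraries against wild type 1 gave 320 lower and 8 higher. Of the 200 genes called with 5 libraries, 114 passed there too and all 199 that could be tested kept their sign. Grouped by file record instead, no gene passed (187 at an unadjusted p under 0.05), and 193 of the 200 kept their sign. Trhde, Trim69 and Aqp9, described below, were among the rest. In a fit with a lone wild type, its spread is taken to equal that of the TGdel group.

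**Figure D1:**
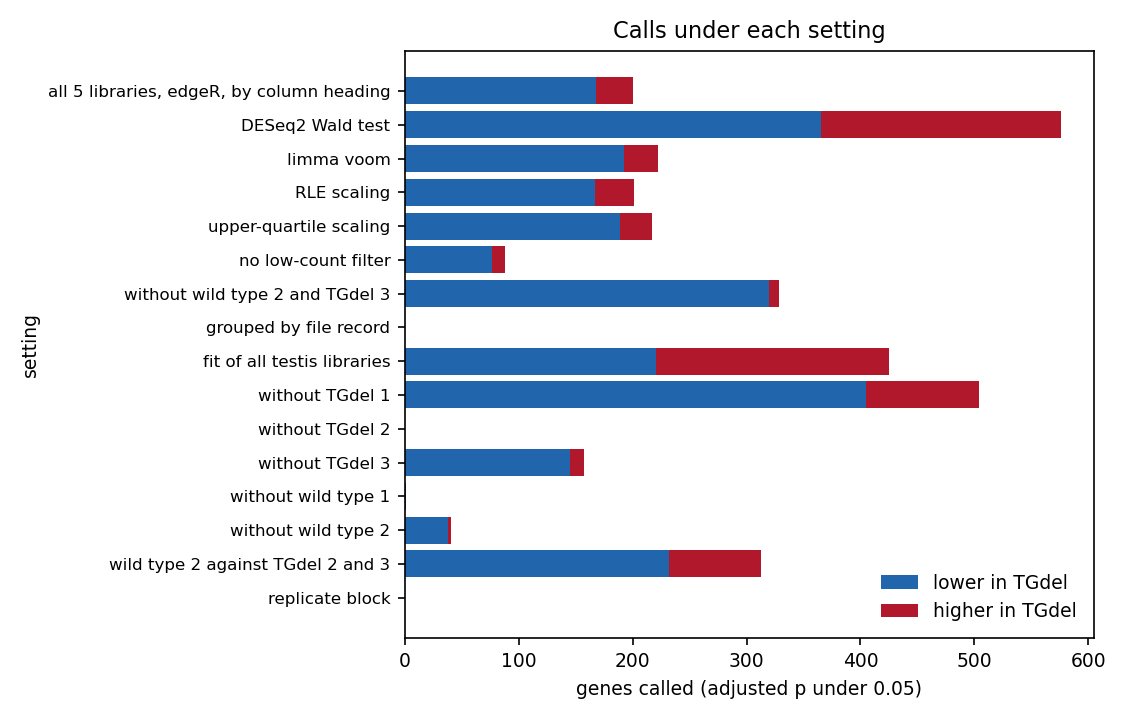
Genes called lower (blue) and higher (red) in TGdel testis at an adjusted p under 0.05, for the fit of all 5 libraries (168 and 32, top bar) and each other setting; bar length is the number of genes. No bar is seen for the grouping by file record, for the fit without TGdel 2 and for the replicate block, where no gene passed, and the fit without wild type 1 has 1 gene.

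The falls of smallest p included genes well expressed in wild-type testis. Tsnaxip1 (chr8:105827731-105844680, plus strand), which encodes a protein that binds translin-associated factor X, had the smallest p. It measured 224 and 223 CPM in wild type and 88.4, 82.8 and 94.5 CPM in TGdel, a log2 change of -1.34 ± 0.08 (adjusted p = 0.00138). Ccdc38 (chr10:93540632-93584327, plus strand), a coiled-coil gene needed for sperm flagella and placed here with the manchette, the microtubule skirt that shapes the sperm head, measured 542 and 523 CPM against 218, 195 and 245 CPM. Its log2 change was -1.28 ± 0.10 (adjusted p = 0.0053). In both genes every TGdel library lay far below both wild types, with little spread inside either group. Iqub, a radial spoke protein gene, measured 119 and 117 CPM against 49.3, 54.8 and 61.8 CPM (log2 change -1.09 ± 0.10). Nme8, which encodes a thioredoxin-domain protein of the flagellum, measured 77.3 and 65.7 CPM against 36.4, 29.8 and 37.7 CPM (log2 change -1.05 ± 0.12). Nme8 was the single called member of 36 tested in the pachytene spermatocyte list, where 1.05% of all genes tested fell. Tsnaxip1 and Iqub, like Kif9, Tekt2, Dnaic1, Dnaic2, Ttll9, Armc4 and Efcab6 below, lie outside the naming rule and were chosen after their values were seen.

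Genes of the axoneme fell together with these. Of 73 members tested of the list of axoneme, dynein and flagellum assembly genes, 9 fell and none rose, where 1.05% of all genes fell, but the list's median log2 change was only -0.10. Dnah6, a dynein heavy chain of the inner arms (chr6:73017606-73221651, minus strand), measured 172 and 154 CPM in wild type and 99.2, 98.3 and 100.08 CPM in TGdel, a log2 change of -0.71 ± 0.08 (adjusted p = 0.00764). Drc3, part of the regulatory complex that links neighbouring doublets (chr11:60353329-60394341, plus strand), measured 143 and 145 CPM against 89.1, 85.6 and 92.95 CPM, a log2 change of -0.69 ± 0.07. All 3 TGdel libraries sat within a narrow band for both genes. The other 7 were the outer arm dynein chains Dnaic1 (-0.63) and Dnaic2 (-0.71), the outer arm docking gene Armc4 (-0.73), the filament genes Tekt2 (-0.70) and Tekt4 (-0.75), the tubulin-modifying enzyme gene Ttll9 (-0.87) and Efcab6 (-0.63), all as log2 changes. Kif9, the motor of the axoneme's central pair, was not in the list; it measured 314 and 291 CPM against 153, 147 and 165 CPM (log2 change -0.96 ± 0.08, adjusted p = 0.0053).

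To show where transcription of these genes begins, the 300 bases around the first RefSeq start (250 before, 50 after, GRCm38.p6, 5′ to 3′ on the gene's strand) are printed for 3 genes that fell. Capitals mark matches, on either strand, to 2 motifs known from axoneme and spermatid genes: GTTGCC, the short form of the X-box bound by RFX factors, and TGACGTCA, the cyclic AMP response element (CRE).
Kif9 at chr9:110476708-110477007, plus strand: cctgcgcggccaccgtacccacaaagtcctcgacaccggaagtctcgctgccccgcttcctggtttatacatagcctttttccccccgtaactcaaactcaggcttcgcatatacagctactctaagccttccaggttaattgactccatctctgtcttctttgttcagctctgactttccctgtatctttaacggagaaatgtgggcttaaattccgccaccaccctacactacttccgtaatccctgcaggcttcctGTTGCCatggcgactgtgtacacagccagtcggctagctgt
Tekt2 at chr4:126325639-126325938, minus strand: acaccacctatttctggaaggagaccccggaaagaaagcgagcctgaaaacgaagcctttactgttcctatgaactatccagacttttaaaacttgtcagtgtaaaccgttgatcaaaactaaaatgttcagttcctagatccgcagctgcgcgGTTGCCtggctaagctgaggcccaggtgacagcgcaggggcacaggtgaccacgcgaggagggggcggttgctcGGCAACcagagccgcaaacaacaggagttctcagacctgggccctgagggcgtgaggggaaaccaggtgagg
Dnah6 at chr6:73221582-73221881, minus strand: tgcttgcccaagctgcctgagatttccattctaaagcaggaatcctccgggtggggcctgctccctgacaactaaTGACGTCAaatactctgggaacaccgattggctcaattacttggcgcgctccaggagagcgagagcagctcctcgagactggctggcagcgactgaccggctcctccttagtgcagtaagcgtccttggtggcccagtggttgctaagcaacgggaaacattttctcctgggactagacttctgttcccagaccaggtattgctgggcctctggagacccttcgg
Kif9 holds the short X-box just after its start, Tekt2 holds 2 copies on opposite strands, and Dnah6 holds the CRE. Not every gene that fell holds a match. The windows of Drc3, Dnaic1 and Ccdc38 hold neither motif, while that of Dnaic2 holds GTTGCC. Only these exact letters were searched, so variant forms of either motif are unmarked and uncounted. Across the called genes neither motif was frequent: GTTGCC was found in 17.8% of 129 promoters of genes that fell, 10.5% of 19 of genes that rose and 13.2% of 12420 of all genes tested. TGACGTCA was found in 3.88% of those of genes that fell and in 3.03% of all. The SOX-type motif ACAATGG was in 3.1% of promoters of genes that fell and 2.47% of all. These shares are descriptions of the letters in the windows and carry no test.

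The largest falls by the naming rule, which asks for a mean log2 CPM of at least 0, included genes of sperm head and surface proteins. Actl11, an actin-like gene of the testis (chr9:107928469-107932461, plus strand), measured 6.14 and 4.08 CPM in wild type and 0, 0.396 and 0.345 CPM in TGdel, a log2 change of -4.31 ± 0.57 (adjusted p = 0.0185). Actrt2, an actin-related protein gene of the perinuclear theca, measured 5.18 and 3.30 CPM against 0, 0.396 and 0.690 CPM (log2 change -3.51 ± 0.64). Ccin, which encodes calicin of the same layer between nucleus and acrosome, measured 1.58 and 1.32 CPM against 0.120, 0.113 and 0.115 CPM (log2 change -3.56 ± 0.45). These were the 3 members called of 15 tested in the list of actin-like and theca genes, whose median was -1.39, where 1.05% of all genes fell. Of 18 testis ADAM protease genes, which encode surface proteins of sperm, 2 fell, with a list median of -1.29, again beside 1.05% of all genes. The ADAM list nevertheless summed to 3025 and 2964 CPM in wild type and 3050, 3057 and 3444 CPM in TGdel, so its total was not lower. The actin-like and theca list summed to 854 and 760 CPM in wild type and 596, 697 and 705 CPM in TGdel. Adam24 measured 13.9 and 9.09 CPM against 0.301, 1.30 and 2.82 CPM, and Adam21 measured 2.76 and 1.54 CPM against 0.120, 0.113 and 0.345 CPM. TGdel 1 was by far the lowest of the mutants for Adam24 but not for Adam21.

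The remaining large falls took in a transporter, enzymes and secreted proteins. Atp1a4, the sodium pump subunit of sperm, fell from 12.9 and 7.99 CPM to 0.301, 1.07 and 2.47 CPM (log2 change -3.01 ± 0.54) and was the 1 call of 32 ion transport genes, whose median was -0.04. The carboxypeptidase gene Cpa5 (-3.40), the secreted phospholipase gene Pla2g10 (-3.33), Antxrl (-2.69), the apolipoprotein H gene Apoh (-2.68), Elfn1 (-2.36), the ADP-ribosyltransferase gene Art1 (-2.34) and Pcnx2 (-2.28) also fell, all as log2 changes. Of these, Elfn1 had the highest level, with 22.7 and 15.5 CPM in wild type and 3.61, 4.58 and 2.99 CPM in TGdel. Chd5, a chromatin remodeller of spermatids, was the 1 call of 22 tested genes of protamines and spermatid chromatin, whose median was -0.48. It measured 47.4 and 38.4 CPM against 11.3, 17.0 and 21.6 CPM (log2 change -1.37 ± 0.22). Zmynd15, a repressor active in spermatids, was the 1 call of 35 transcription regulators (147 and 120 CPM against 71.1, 77.8 and 89.1 CPM). Plk1, the kinase of mitotic and meiotic division, was the 1 call of 41 division genes (114 and 93.6 CPM against 63.0, 70.3 and 66.6 CPM). Where 1.05% of all genes tested fell, a single call in each of these lists says little about its members.

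**Figure D2:**
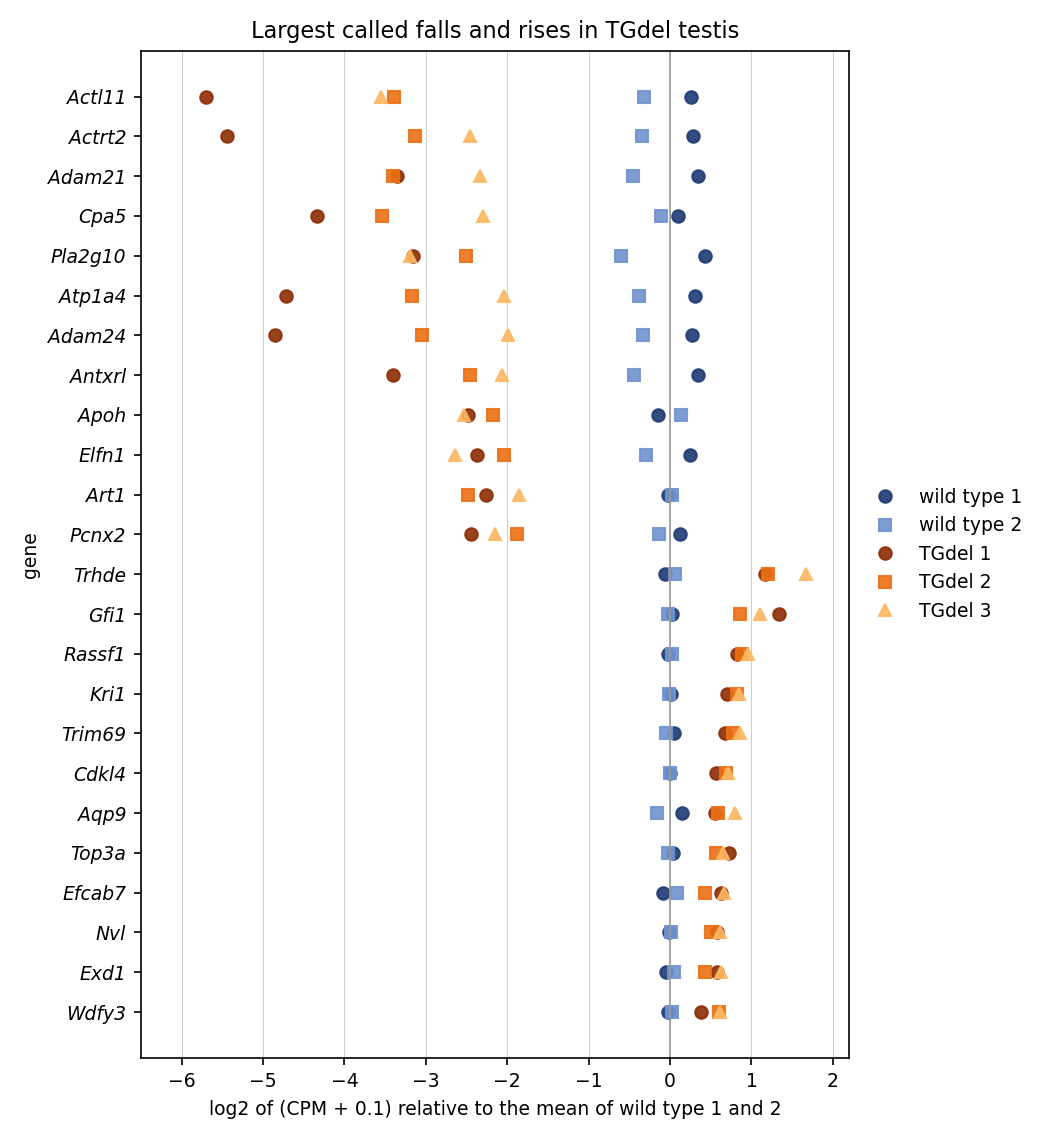
CPM of each library relative to the wild-type mean, on a log2 scale with 0.1 CPM added, for the 12 largest called falls and 12 largest called rises that met the naming rule; blue marks are the 2 wild-type libraries, brown to orange marks the 3 TGdel libraries. The falls reach further from 0 than the rises, and TGdel 1 (dark circles) lies far below the other mutants in Actl11, Actrt2, Atp1a4 and Adam24.

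The genes that rose changed by less. Most varied little across the TGdel libraries, which the test favours because it divides by spread. Rassf1, which encodes a scaffold of Hippo signalling and microtubules (chr9:107551555-107562267, plus strand), measured 109 and 114 CPM in wild type and 198, 206 and 216 CPM in TGdel, a log2 change of 0.89 ± 0.08 (adjusted p = 0.0053). Kri1, a ribosome assembly gene (chr9:21273457-21287969, minus strand), measured 98.06 and 96.005 CPM against 157, 172 and 175 CPM (log2 change 0.79 ± 0.08). Trim69, a ubiquitin ligase gene expressed in testis (chr2:122160700-122179027, plus strand), measured 135 and 125 CPM against 206, 221 and 235 CPM (log2 change 0.77 ± 0.09). In these genes every mutant library stood at more than 1.5 times either wild type. Top3a, the topoisomerase that unlinks DNA strands, was the 1 call of 38 tested genes of R-loop resolution and transcription-replication conflict (65.6 and 62.8 CPM against 106, 94.6 and 101 CPM). Exd1, a piRNA pathway gene, was the 1 call of 30 of its list (36.0 and 38.5 CPM against 55.8, 50.1 and 57.3 CPM). The others by the naming rule were Trhde (1.39), Gfi1 (1.13), the kinase gene Cdkl4 (0.66), the water channel gene Aqp9 (0.65), Efcab7 (0.58), the ribosome assembly gene Nvl (0.57) and Wdfy3 (0.54), as log2 changes. Aqp9, the 1 call of 29 epididymal genes tested, measured 103 and 82.8 CPM against 137, 140 and 162 CPM. Over all genes tested 0.2% rose, so a single call among 38, 30 or 29 genes says little about a list.

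The motif CAGTTG, bound by MYB factors of meiosis, was found on either strand in 6 of the 19 promoters of genes that rose (31.6%), in 14% of those of genes that fell and in 11.3% of all. With 19 promoters this is a count without a test. The Trim69 window holds it shortly before the start (capitals, here as the reverse complement) and is printed for that reason.
Trim69 at chr2:122160458-122160757, plus strand: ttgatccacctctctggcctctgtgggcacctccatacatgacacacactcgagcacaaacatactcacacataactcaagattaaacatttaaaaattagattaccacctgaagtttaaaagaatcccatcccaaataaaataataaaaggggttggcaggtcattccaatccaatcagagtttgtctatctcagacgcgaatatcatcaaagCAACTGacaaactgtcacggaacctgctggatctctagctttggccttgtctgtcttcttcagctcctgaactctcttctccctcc

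Many genes with low values in TGdel did not pass the test, and their TGdel libraries differed among themselves. Of 677 genes that were lower in TGdel by at least 1 on the log2 scale, 88 were called and 589 were not. Over all 677, TGdel 1 was the lowest mutant in 510 and TGdel 3 the highest in 514, and the median range within TGdel was 1.82 on the log2 scale. The same range was 0.248 for the 168 genes that fell, 0.157 for the 32 that rose and 0.259 for all genes tested. Since the test divides by spread, called genes have a small range by selection. In 157 of the 168 and in all 32, the gap between the groups exceeded the range within TGdel. TGdel 3, one of the pair whose record and heading disagree, was thus the mutant nearest to wild type in most of the 677.

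**Figure D3:**
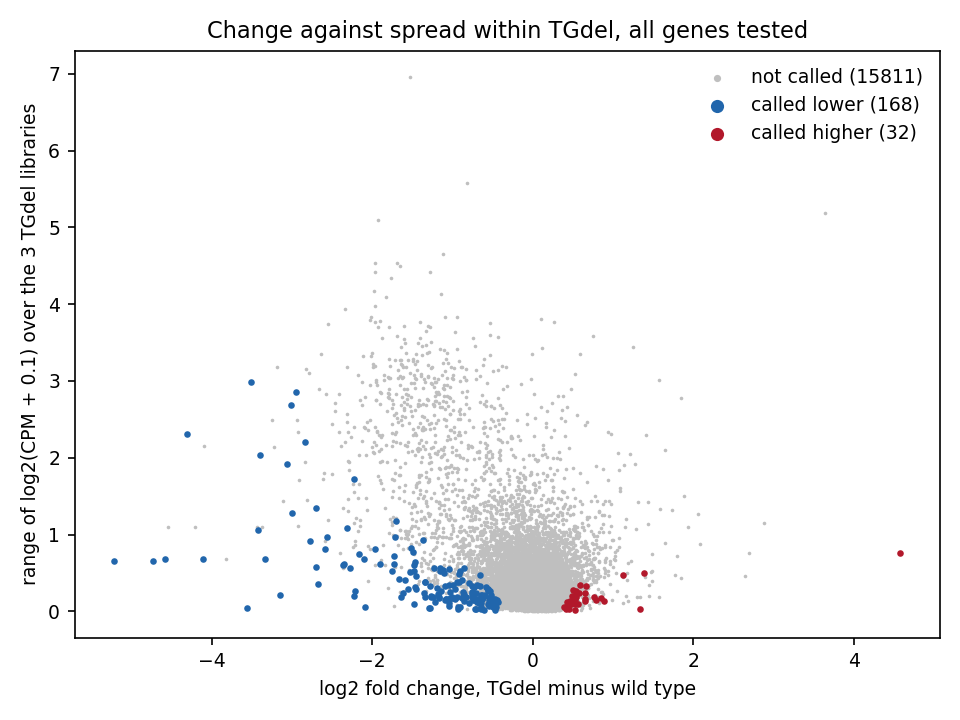
Log2 fold change of TGdel against wild type (x axis) and the range of log2(CPM + 0.1) over the 3 TGdel libraries (y axis) for all 16011 genes tested; each point is a gene. Many uncalled genes (grey) sit at falls of 1 to 2 with a wide range, while most of the 168 genes called lower (blue) and all 32 called higher (red) sit near the bottom.

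Marker genes of round spermatids were among the uneven genes. Acrv1, an acrosome protein gene that marks round spermatids, measured 14.2 and 10.1 CPM in wild type and 0.723, 4.75 and 8.97 CPM in TGdel 1, 2 and 3 (adjusted p = 0.371). Akap4, the main fibrous sheath protein of the sperm tail, measured 30.8 and 24.2 CPM against 2.47, 11.6 and 20.1 CPM (adjusted p = 0.331). Odf1, of the outer dense fibres, measured 29.6 and 16.2 CPM against 1.39, 7.74 and 14.3 CPM (adjusted p = 0.283). In these genes TGdel 1 was the lowest and TGdel 3 the highest mutant, and none reached the lower wild type. Gapdhs, the glycolytic enzyme of sperm, measured 26.0 and 17.6 CPM against 1.93, 7.07 and 13.1 CPM, and Hils1, a spermatid linker histone, 21.2 and 12.9 CPM against 1.26, 6.90 and 12.5 CPM. Tnp1, the transition protein that replaces histones, was lower in all (2.03 and 1.32 CPM against 0, 0.339 and 0.173 CPM, adjusted p = 0.0607). The 8 round spermatid markers, of which 6 were tested and none called (median log2 change -1.65), summed to 59.3 and 44.0 CPM in wild type and 8.73, 20.86 and 34.97 CPM in TGdel 1, 2 and 3. These genes too were named after their values were seen. In whole testis, fewer cells of a type and less RNA per cell cannot be told apart, and this holds for the called genes of spermatids as well.

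**Figure D4:**
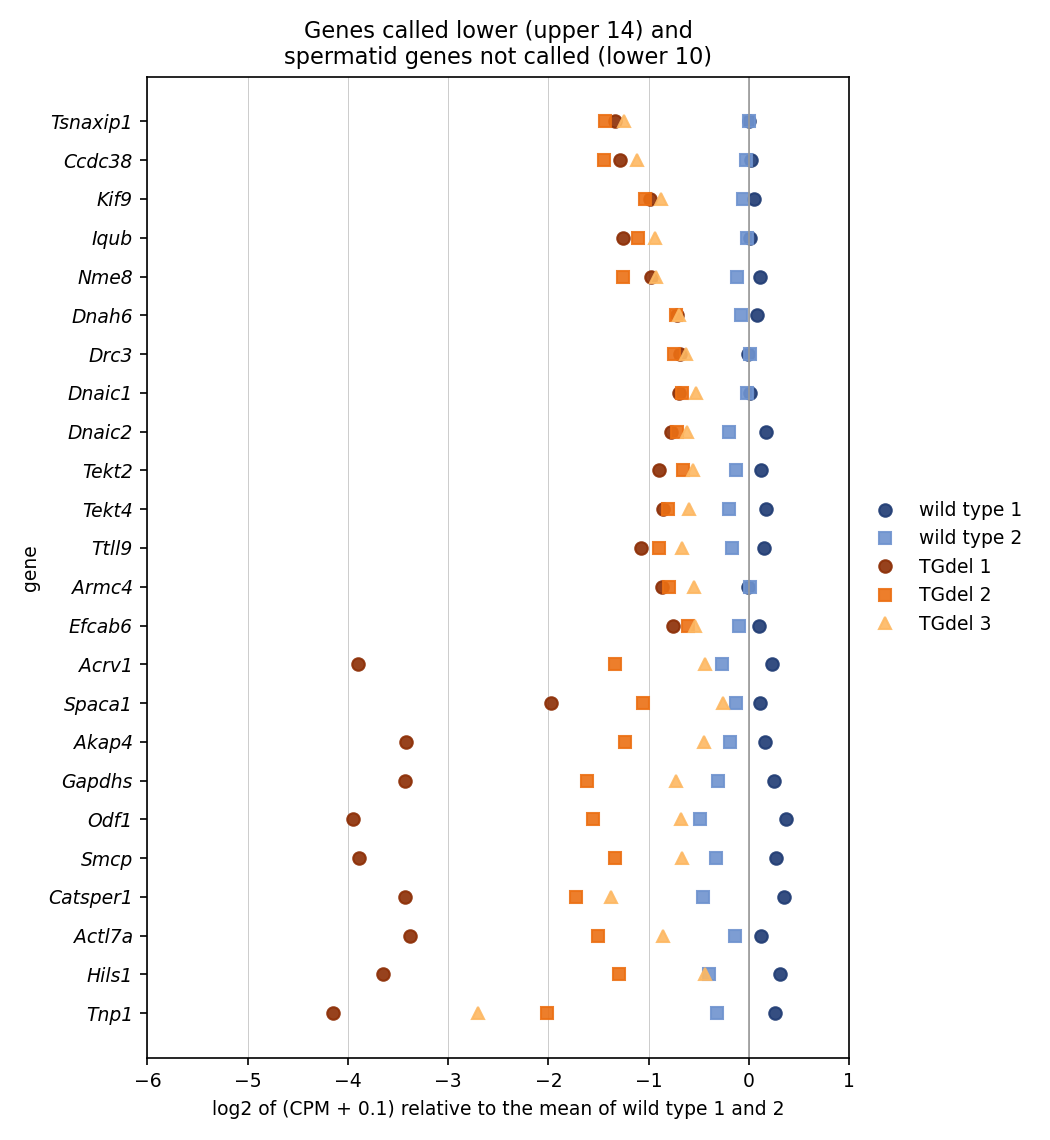
CPM of each library relative to the wild-type mean, on a log2 scale with 0.1 CPM added, for 14 genes called lower (top) and 10 spermatid genes not called (bottom). In the upper genes the 3 TGdel libraries lie together, about 0.5 to 1.5 below 0, and in the lower genes they spread more widely with TGdel 1 lowest. The split by call favours this contrast, since the test divides by spread.

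Several lists of spermatid genes had low medians with no call or a single one. The kinase and phosphatase list, also without a call, had a median near that of all genes tested (0.0017). None was called of 36 acrosome genes (median log2 change -0.32), 23 sperm-egg fusion genes (-0.32), 22 genes of outer dense fibres and mitochondrial sheath (-0.62), 21 of germ cell glycolysis (-0.23), 27 spermatid kinases and phosphatases (-0.01) and 3 of the Iqcf family (-1.46). Among 15 fibrous sheath genes, whose median was -1.09, the 1 call was Tekt4, the filament gene also counted in the axoneme list. Their list summed to 4990 and 4597 CPM in wild type and 4455, 4919 and 5002 CPM in TGdel, so the sums overlapped. Among 29 manchette genes (-0.28) the 1 call was Ccdc38. The members with the smallest p were the acrosome gene Zpbp2 (271 and 254 CPM against 194, 179 and 209 CPM, adjusted p = 0.0585) and Glipr1l1 of the midpiece list (22.0 and 18.5 CPM against 10.5, 9.89 and 13.8 CPM, adjusted p = 0.0586). In the other lists they were the fusion gene Izumo1 (log2 difference -1.33, adjusted p = 0.178), the hexokinase gene Hk1 (-0.80, 0.0607), the kinase gene Stk36 (-0.44, 0.0836) and Iqcf5 (-2.31, 0.0941). Of 843 distinct list genes tested, 20 fell and 3 rose, where 1.05% of all genes tested fell and 0.2% rose.

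**Figure D5:**
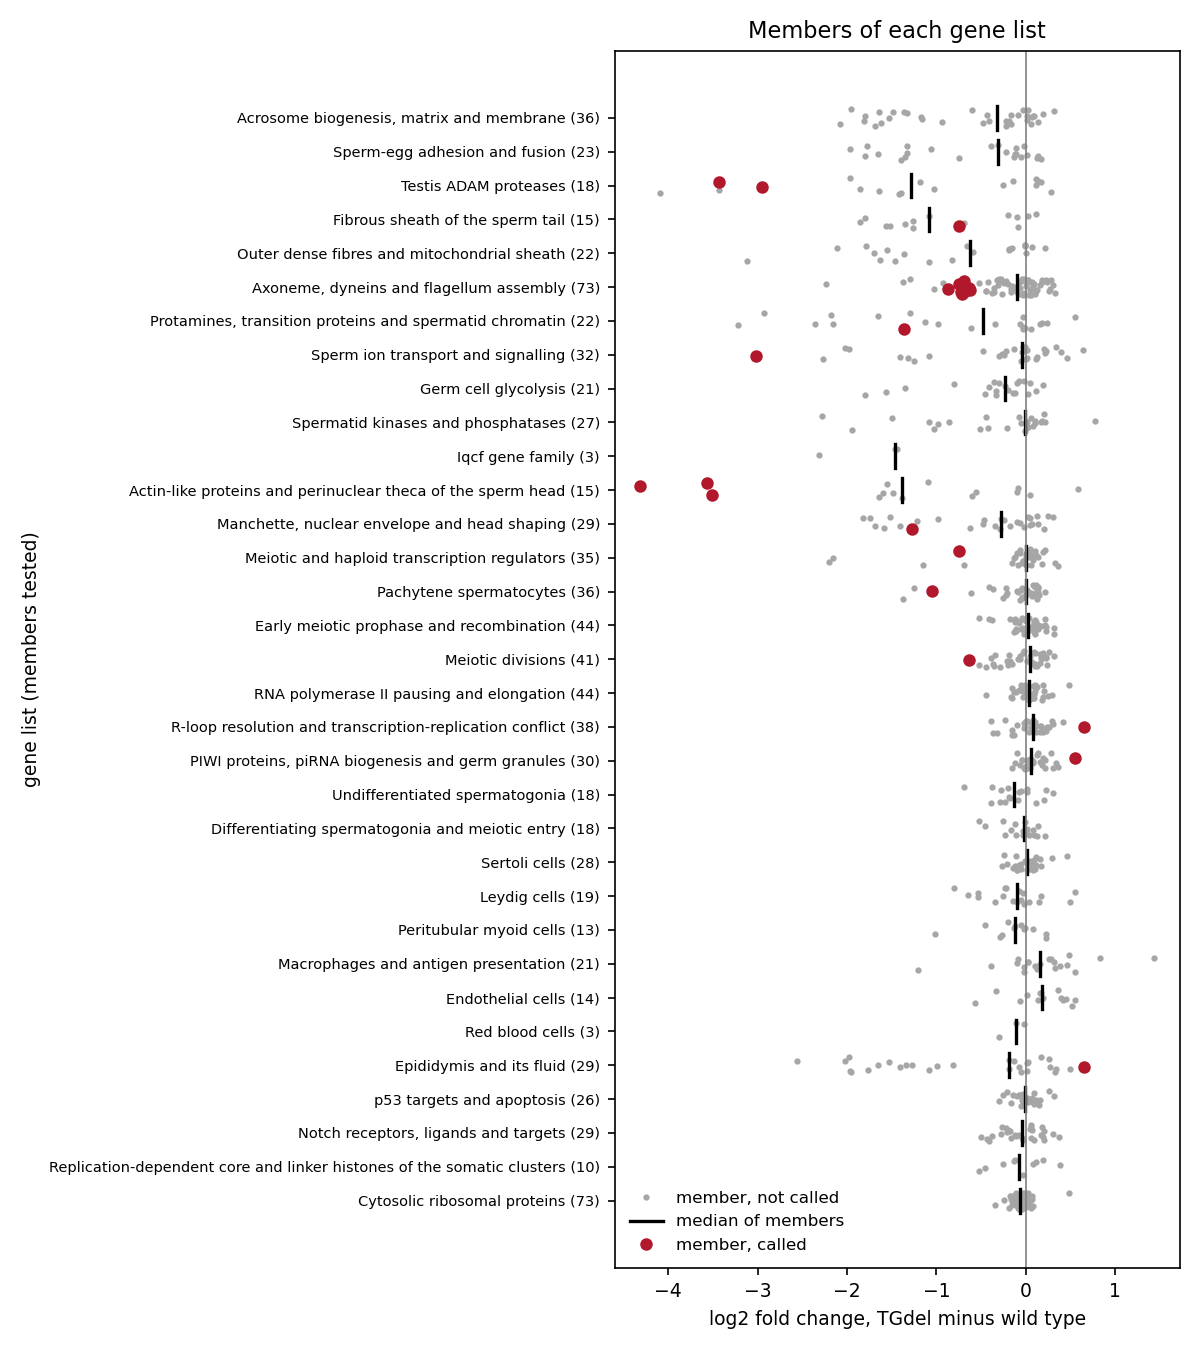
Log2 fold change of every tested member of the 33 gene lists with a member tested, without the separate panel of round spermatid markers; each point is a gene, red points passed the test, black bars mark medians and the number of members tested stands in brackets. The lists of the sperm head and tail in the upper part have medians down to -1.46, and the meiotic and somatic lists lie near 0.

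Few genes of earlier germ cells or of the transcription machinery were called, where 1.05% of all genes tested fell and 0.2% rose. At these shares, no call or a single call in lists of this size says little about their members. None of 44 genes of early meiotic prophase was called (median log2 change 0.02; Mlh3, a mismatch repair gene of crossovers, 0.31 with adjusted p = 0.139), and the pachytene and division lists had medians of 0.01 and 0.04. None of 44 genes of RNA polymerase II pausing and elongation was called (median 0.04; Eaf1 0.29, adjusted p = 0.11). The regulators had a median of 0.01, the R-loop list 0.07 and the piRNA list 0.05. None of 18 undifferentiated spermatogonia genes (median -0.14; Id4 0.22, adjusted p = 0.237) and none of 18 differentiating spermatogonia genes (-0.02; Rec8 -0.52, 0.159) was called. None was called of 26 p53 and apoptosis genes (-0.0049; Trp53inp1 0.31, 0.197), 29 Notch genes (-0.05; Numb 0.20, 0.248), 10 replication-dependent histones (-0.08; Hist1h1c 0.39, 0.519) or 73 ribosomal proteins (-0.06; Rplp2 -0.35, 0.119).

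Markers of the other cells of the testis gave no call, but single libraries stood out. Where 1.05% of all genes tested fell and 0.2% rose, no call in lists this small says little about these cells. The Sertoli list (28 genes, median 0.02; Rhox5 -0.27, adjusted p = 0.189) summed to 6827 and 6756 CPM in wild type and 6512, 7059 and 6386 CPM in TGdel. The Leydig list (19 genes, median -0.10) summed to 852 and 870 CPM against 1044, 572 and 632 CPM. Cyp17a1, an enzyme of androgen synthesis in Leydig cells, measured 103 and 108 CPM against 160, 11.8 and 48.1 CPM. The myoid (13 genes, median -0.13; Actg2 -1.02, adjusted p = 0.0607), macrophage (21, 0.16; Aif1 -1.20, 0.0613), endothelial (14, 0.18; Vwf 0.51, 0.235) and red blood cell lists (3, -0.12; Bpgm -0.12, 0.557) had no call. Crisp1 and Adam7, genes of the epididymis, measured 23.4 and 5.46 CPM in wild type 1 and 12.3 and 4.70 CPM in TGdel 1. In wild type 2 and in TGdel 2 and 3 Adam7 was at 0 and Crisp1 at 0.0551, 0 and 0 CPM. The epididymal list as a whole summed to 530 and 383 CPM against 500, 445 and 443 CPM, with a median of -0.19. The part of these Leydig and epididymal differences in the results was not tested. With wild type 1 and TGdel 1 both left out, an alternative added after the data were seen, all 198 of the 200 called genes that could be tested kept their sign. The groups did not overlap in these genes, which left little room for a sign to turn.

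The called genes were spread over the autosomes. Of 16011 genes tested, 15763 were placed by symbol on GENCODE vM21 (GRCm38), with 163 of the 168 that fell and 30 of the 32 that rose. None of 663 genes on the X chromosome was called, where 1.05% of all genes tested fell and 0.2% rose. The median gene length was 23699 bases for genes that fell, 28078 for genes that rose and 23198 for genes not called. Within 20000 bases of each other lay 4 pairs of called genes. Of the genes that fell 3.68% had another such gene in that window, and of the genes not called 1.59% had one, which is a description with no test. In 3 of these pairs both genes fell: Chd5 with Kcnab2 (-1.37 and -0.75), Iqub with Asb15 (-1.09 and -2.70) and Itgad with 4931431B13Rik (-1.35 and -4.10). The last pair overlaps on opposite strands, and since the strand setting of the counting is not given, its reads cannot be told apart.

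The TGdel effect was also set against the effect of an Nkapl knockout on the same tissue and age, measured in a separate set of 2 knockout and 3 wild-type libraries, 1 of which (wild type 3) has a record that crosses the groups. The sets share no library. Of 16930 genes tested for the difference of the effects, 1179 had a higher value (6.96%) and 818 a lower value (4.83%) with TGdel than with the knockout. The split depends on scaling: 59.0% of the calls lay above 0 with the trimmed mean of M-values, 77.5% with DESeq2-type size factors in edgeR (1459 and 424) and 78.2% in DESeq2 (1622 and 451). Without the libraries whose record and heading disagree 123 genes differed (119 above 0), and without knockout 2 only 19. Set, genotype and allele cannot be told apart in the levels, since each set was sequenced apart. Each allele was measured in 1 set only, so a difference of effects cannot be told apart from a difference between the sets. Rn45s took between 3.96% and 5.53% of the counts in the knockout set, against 0.0598% to 0.497% in the TGdel set.

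Some of the falls differed detectably between the TGdel and knockout comparisons, in which allele and set cannot be told apart, and others did not. Ccdc38 changed by -1.26 with TGdel and -1.33 with the knockout on the log2 scale, a difference of 0.07 ± 0.11 (adjusted p = 0.742). Dnah6 changed by -0.70 and -0.83, a difference of 0.13 ± 0.10 (adjusted p = 0.413). Neither difference passed, which does not show equal effects. Adam24 changed by -2.93 and -8.99, a difference of 6.06 ± 1.27 (adjusted p = 0.0133), and Antxrl by -2.68 and -7.42 (4.75 ± 0.91, adjusted p = 0.0107). Both genes had lower levels in each mutant group than in its own wild type, with the larger change in the knockout set. Where a mutant group has few or no reads of a gene, the size of such a log2 change is uncertain. Trim69 changed by 0.78 with TGdel and -0.02 with the knockout, a difference of 0.80 ± 0.10 (adjusted p = 0.00233). Cdkl4 (0.67 and -0.06, adjusted p of the difference 0.00587) and Aqp9 (0.67 and 0.01, 0.0118) also had a higher value with TGdel. Rassf1 rose with both (0.90 and 0.52, 0.0277), as did Top3a (0.66 and 0.78), whose difference did not pass (-0.12 ± 0.09, adjusted p = 0.376). Nkapl itself changed by 0.21 and -0.28 (difference 0.49 ± 0.10, adjusted p = 0.012).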

How the data were processed

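The authors deposited unscaled whole-number read counts per gene symbol. The submitters' processing notes name mm10, DESeq2, HTSeq and HISAT2 2.1.0, with no role given. Annotation and counting strand were not given in these sources, which leaves overlapping genes and near-identical copies uncertain. Per the labels' protocols, TRIzol RNA went into TruSeq stranded total RNA libraries. The series design describes triplicates as biological, but the TGdel set holds 2 wild-type and 3 TGdel libraries, placed by column heading.

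Genes were kept with filterByExpr, libraries scaled with TMM factors and genes tested two-sided with edgeR 4.0.16 (quasi-likelihood, Benjamini-Hochberg adjusted p under 0.05), with DESeq2 1.42.0 and limma voom 3.58.1 as alternatives. SE is the log2 fold change over the square root of F. CPM use 0.1 as pseudocount on log scales only. The difference of effects is a contrast in a joint fit. The fit was tested on simulated data. The rule names Nkapl, Nkap and Sox30, the 12 largest called changes in each direction with mean log2 CPM of at least 0 and no overlap, and by p up to 2 members of each of 34 lists (33 with a member tested, 25 symbols matched through synonyms), passing over provisional symbols. Members and lists were chosen with earlier results of these data known. Promoters came from RefSeq (GRCm38.p6) and matched 148 of the 200 called genes outside a chromosome that was not used. Sorted cells and the Sox30 set were not used beyond one alternative fit. Some results are not reported here. Depth limits low genes: 1 count was about 0.06 CPM.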

Additional observations from a re-analysis of the deposited data

Results flagged for a closer look

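The effects of TGdel and of the Nkapl knockout differed by the test of the difference in 1997 genes. By p, the first 5 genes on either side of 0 (provisional symbols passed over) are given. The difference (TGdel effect minus knockout effect, log2) was above 0 in Erich2 (0.88), Epyc (1.37), Vmn2r88 (4.8), Cap2 (1.38) and Tex21 (3.61). Cap2, which encodes an actin-binding protein, measured 19.11 and 18.50 CPM in wild type and 12.94, 11.99 and 13.17 CPM in TGdel, a log2 value of -0.57 against -1.95 in the knockout. Erich2 measured 73.1 and 72.6 CPM in wild type and 65.6, 73.2 and 76.5 CPM in TGdel, and the knockout value was -0.90. Vmn2r88 measured 0.667 and 0.661 CPM in the wild types of the TGdel set but 3.96, 3.52 and 4.03 CPM in those of the knockout set, so its wild-type levels already differed between the sets. The difference was below 0 in Arl15 (-1.61), Snx18 (-0.87), Ddit4 (-0.76), Mark4 (-0.65) and Rps6ka2 (-0.65). Arl15 measured 23.7 and 20.8 CPM in the wild types of the TGdel set, 9.09, 9.43 and 9.12 CPM in TGdel, and 10.6, 8.89 and 7.89 CPM in the wild types of the knockout set. The wild-type levels of Arl15 in the knockout set thus lay at the level of TGdel. The part of such differences between the sets in these results was not tested.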

How the results depend on the processing

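All genes called in the 5-library comparison kept their sign wherever tested in every setting but the grouping by file record. For settings that leave out libraries, the lack of overlap in called genes left little room for a sign to turn. DESeq2 gave 365 lower and 211 higher, no low-count filter 76 and 12, the fit of all testis libraries 220 and 205, leaving out both libraries whose record and heading disagree 320 and 8, the file record 0 and 0, and wild type 2 against TGdel 2 and 3 (added after seeing the data) 232 and 81. Leaving out 1 library gave 0 to 405 lower and 0 to 99 higher. With limma voom, RLE scaling and upper-quartile scaling the counts stayed within 1.5 times. Same-number correlations of deviations from the group mean were -0.06 and -0.06. With 2 wild types these deviations mirror each other, so they cannot settle whether replicate numbers pair the samples. A replicate block left 0 called in either direction (1686 at an unadjusted p under 0.05). For the difference of effects the block left 0 (2676 at an unadjusted p under 0.05), leaving out the disagreeing libraries 123, and leaving out 1 library 19 to 3313.

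By file record the log2 change turned to -0.154 for Trhde, -0.0063 for Trim69, -0.142 for Aqp9, -0.0537 for Nkapl, -0.0844 for Nkap, -0.0843 for Sox30, -0.0482 for Id4, 0.0255 for Rhox5, -0.0222 for Hist1h1c, 0.2996 for Cyp17a1 and -0.178 for Mir1947. Nkap also turned with upper-quartile scaling (-0.00376), without both disagreeing libraries (-0.0346) and with the replicate block (-0.0409), and ranged from -0.0405 (without TGdel 3) to 0.0612 with 1 library left out. With 1 library left out Crisp1 ranged from -2.52 to 6.034 and Adam7 from -1.81 to 7.766, the upper values being those without wild type 1, the one wild type in which Adam7 was detected. The cause of the other changes was not tested.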

Other observations

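Several genes outside the lists fell evenly, and they were chosen after their values were seen. Ngfr, the p75 neurotrophin receptor gene, measured 17.8 and 13.3 CPM in wild type and 3.37, 3.05 and 3.51 CPM in TGdel (log2 change -2.23 ± 0.18, adjusted p = 0.0053 in edgeR). Prss56, a serine protease gene, measured 14.2 and 10.7 CPM against 3.01, 2.49 and 2.59 CPM. Fa2h, the fatty acid hydroxylase gene, measured 60.1 and 43.3 CPM against 18.1, 18.4 and 19.4 CPM. Pik3cd, a catalytic subunit of PI3 kinase, measured 65.1 and 53.6 CPM against 26.4, 23.4 and 20.3 CPM. Dnm1, a dynamin gene, measured 24.8 and 22.3 CPM against 9.58, 10.5 and 10.4 CPM. In each of them the 3 TGdel libraries lay closer together than the groups. Ccnd3, a D-type cyclin gene, fell by 0.93 and Bap1, a deubiquitinase gene of chromatin, fell by 0.64 on the log2 scale.

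Among the rises outside the lists, Ddit3, a transcription factor gene of the integrated stress response, measured 61.8 and 56.5 CPM in wild type and 84.9, 85.6 and 86.0 CPM in TGdel (log2 change 0.53 ± 0.08). Ndufaf3, an assembly factor gene of respiratory complex I, measured 316 and 306 CPM against 447, 461 and 432 CPM. The largest rise by log2 value was in the microRNA gene Mir1947, at 0 and 0.0551 CPM in wild type and 0.602, 0.791 and 1.09 CPM in TGdel. The origin of these few reads was not tested. Spata25 and Sppl2c, both of testis, had the largest falls among genes with an assigned name, at log2 values of -5.22 and -4.58, but from only 1.35 and 0.606 CPM and from 1.41 and 0.771 CPM in wild type.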
